A study of Mus musculus with 7 samples.

Results

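The genes described are 10 regulators of blood vessel growth and of the response to low oxygen, taken by name from a table of 21487 genes. They are the vascular endothelial growth factor ligands Vegfa, Vegfb and Vegfc, the vessel-acting factors Fgf1, Angpt1 and Apln, the hypoxia-inducible factor subunits Hif1a and Epas1, and the prolyl hydroxylases Egln1 and Egln3. All 10 were found in the table and all 10 passed the filter on low counts, as did 13409 genes in all. RNA was sequenced from mouse gastrocnemius, a mostly fast muscle of the calf, that had wasted through immobilization. The 4 knockout libraries came from mice that lacked DJ-1 (gene Park7, a protein that guards against oxidative stress) in skeletal muscle, labelled MPARK7KO, and the 3 control libraries from flox mice, labelled WT. Both groups were immobilized, so that disuse itself was not compared. The sources used here give no strain, age, sex, Cre driver or length of immobilization, nor do they say whether libraries are separate animals, and p-values measure the spread between libraries, which may be technical.

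Muscle fibres release VEGF-A, which acts through its receptors on the endothelial cells of the capillaries beside them and keeps that bed dense. VEGF-B binds the receptor encoded by Flt1 and has been linked to fatty acid uptake by the vessel wall in mice. The HIF alpha subunits are made all the time. In the presence of oxygen the EGLN enzymes hydroxylate them on prolines, the von Hippel-Lindau protein then binds and the proteasome destroys them. When oxygen falls they persist, pair with ARNT and switch on genes that hold the hypoxia response element, among them Vegfa and, as feedback, Egln1 and Egln3. In muscle, Vegfa is also induced through the coactivator PGC-1alpha and estrogen-related receptors, without HIF. HIF activity is set mostly at the protein, which RNA counts do not show.

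The letters just upstream of the start of Vegfa, Vegfb and Egln3 are printed because Vegfb was called lower, whereas Vegfa and Egln3, both textbook HIF targets, were not called. Each run is the 250 bases before the annotated start, 5′ to 3′, from RefSeq on GRCm38.p6, and capitals mark the core of the hypoxia response element (ACGTG or GCGTG, either strand).
Vegfa, minus strand, chr17:46032378-46032627: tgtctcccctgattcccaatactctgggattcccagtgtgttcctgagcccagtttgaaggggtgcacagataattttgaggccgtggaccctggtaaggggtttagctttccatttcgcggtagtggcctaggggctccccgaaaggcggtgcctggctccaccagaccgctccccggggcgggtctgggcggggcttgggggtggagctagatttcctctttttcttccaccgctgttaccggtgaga
Vegfb, minus strand, chr19:6987652-6987901: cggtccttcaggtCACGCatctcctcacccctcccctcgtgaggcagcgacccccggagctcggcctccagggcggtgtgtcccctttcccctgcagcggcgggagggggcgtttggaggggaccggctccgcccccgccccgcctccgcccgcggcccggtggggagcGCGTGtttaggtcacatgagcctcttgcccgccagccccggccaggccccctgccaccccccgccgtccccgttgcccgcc
Egln3, minus strand, chr12:54203875-54204124: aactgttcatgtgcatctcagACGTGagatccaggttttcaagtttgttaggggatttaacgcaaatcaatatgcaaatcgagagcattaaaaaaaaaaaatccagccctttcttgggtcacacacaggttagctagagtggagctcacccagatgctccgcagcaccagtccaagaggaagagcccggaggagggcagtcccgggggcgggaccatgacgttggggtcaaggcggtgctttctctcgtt

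Vegfb has 2 such cores, beginning 237 and 81 bases before the start, Egln3 has 1 at 229 bases, and this window of Vegfa has none. The core lies in 38.6% of the 32851 upstream windows of the same length in the table, so a match is common. A second annotated start of Vegfa, inside the gene, has 2 cores at 218 and 211 bases. The promoter table matched 7 of the 10 genes with 8 windows, 5 of them with a core. The estrogen-related receptor element AAGGTCA was in none of the 8 windows and in 4.08% of all windows. Such matches describe letters and do not show binding.

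The libraries held between 24458343 and 26389010 counts. Park7 fell to 0.152 times the control level, from 245 ± 18.8 to 37.3 ± 2.94 CPM (the usual depth-scaled count, on TMM library sizes, SD, n = 3 and 4; log2 fold change -2.71, edgeR quasi-likelihood test, adjusted p = 2.52e-06). A gene was called at a Benjamini-Hochberg adjusted p under 0.05 over all 13409 tested genes. By that rule 8.23% of all genes were called lower in the knockout and 6.67% higher, and calls that were higher made up 44.8% of all calls (33.2% with upper quartile scaling). Groups did not overlap, with every knockout library below every control, in 14.8% of genes, and with every knockout above in 14.0%. The defining markers of skeletal muscle summed to between 44276 and 59333 CPM in every library. The summed slow fibre markers lay between 1871 and 2195 CPM in the controls and between 86.0 and 742 CPM in the knockouts, and Myh2, the type IIa myosin, between 4708 and 6810 CPM and between 124 and 1696 CPM. Summed adipocyte markers were also lower without overlap (149.9 to 191 CPM in the controls, 89.3 to 143 CPM in the knockouts). Most of that sum was Fabp4 (means 128 and 87.9 CPM), and of the 5 tested adipocyte markers 2 were called lower and 3 were not called. Schwann cell markers were lower too (65.1 to 259 and 41.4 to 58.4 CPM). The fast fibre sum was higher (119337 to 147684 and 151977 to 225431 CPM) and was led by Myh4 (means 46309 and 99854 CPM). Of these 9 markers 2 were called higher, 6 were not called and Myh1 was called lower (log2 fold change -1.45, adjusted p = 0.0292). The neutrophil and lymphocyte markers summed to at most 1.03 CPM in any library. The part of these cell and fibre types in the results was not tested.

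Vegfb, Fgf1 and Epas1 were lower in the knockout muscle, and the other 7 genes were not called. So 3 of 10 genes were called lower, against 8.23% of all tested genes. None was called higher, by edgeR, by DESeq2 or at an unadjusted p under 0.05. That unadjusted level was reached by 5 of the 10 genes, all lower, and by 4262 of the 13409 tested genes in either direction. Groups did not overlap in 4 genes, all lower (Vegfb, Fgf1, Epas1 and Egln1), against 14.8% of all genes. The median log2 fold change was -0.38 for the 10 genes and 0.0058 for all tested genes, and 9 of the 10 values lay below 0, against 49.3% of all. The number called was 1 without control 1, control 2, knockout 3 or knockout 4, and Vegfb alone was called in each of the 14 alternatives. Over all tested genes the calls without these libraries were 827, 1023, 952 and 1253, against 1998 in the main fit.

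**Figure D1:**
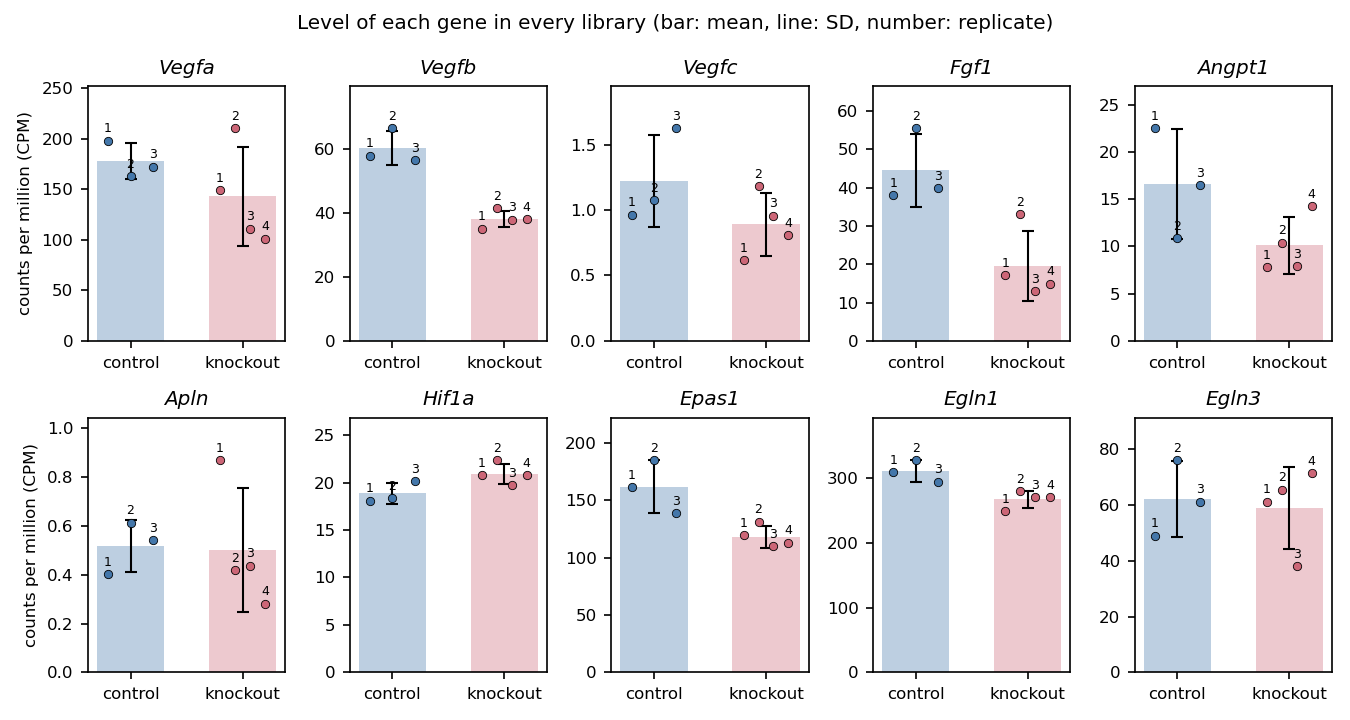
Level of each of the 10 genes in CPM (vertical axes, from 0) in the 3 control and 4 knockout libraries. Bars are means, lines are SD, points are libraries and the number beside a point is its replicate. All knockout points of Vegfb (34.97 to 41.3 CPM) lie under all control points (56.5 to 66.3 CPM), whereas those of Vegfa reach from 101 to 210 CPM around the controls.

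Vegfb, on chromosome 19 (6982473 to 6987651, minus strand, GRCm38), was the firmest of these differences. It read 57.8, 66.3 and 56.5 CPM in controls 1 to 3 and 34.97, 41.3, 37.9 and 38.04 CPM in knockouts 1 to 4. The knockouts lay close together and well below the controls. The mean fell from 60.2 ± 5.32 (SD, n = 3) to 38.1 ± 2.60 CPM (SD, n = 4), a ratio of 0.632 and a log2 difference of -0.66 with standard error 0.0886 (adjusted p = 0.00452). Whichever library was left out, it stayed called, at log2 fold changes between -0.70 and -0.58. Slow fibre markers were lower in the knockouts as well, at 735, 143, 86.0 and 742 CPM in knockouts 1 to 4. So was Myh2, at 1167, 1595, 124 and 1696 CPM. The part of these fibre types in the fall of Vegfb was not tested.

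Vegfa, the main growth factor of capillaries, lies on chromosome 17 (46016993 to 46032369, minus strand, GRCm38). It read 198, 163 and 173 CPM in controls 1 to 3, and 149, 210, 111 and 101 CPM in knockouts 1 to 4. Knockout 2 held the highest level of all libraries, whereas the 3 other knockouts lay below every control. The means were 178 ± 18.1 (SD, n = 3) and 143 ± 49.4 CPM (SD, n = 4). The log2 fold change, -0.32 ± 0.225 (SE), had a 95% interval of -0.83 to 0.19 (adjusted p = 0.370). Without knockout 2 the log2 fold change was -0.56 (adjusted p = 0.0369), and no other alternative gave a call. Leaving out knockout 3 or knockout 4 moved it the other way, to -0.21 (0.594) and -0.18 (0.609).

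Vegfc, the ligand that drives lymphatic vessel growth (chromosome 8, 54077606 to 54187096, plus strand, GRCm38), was scarce, with 17 to 42 counts in a library. Its level ran from 0.965 to 1.62 CPM in the controls and from 0.617 to 1.18 CPM in the knockouts, with overlap. The log2 fold change was -0.46 (95% interval -1.11 to 0.19, adjusted p = 0.310).

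Fgf1, the acidic fibroblast growth factor, which acts on endothelium and on muscle precursors (chromosome 18, 38838673 to 38929472, minus strand, GRCm38), showed the widest difference of the 10. Its controls read 38.1, 55.4 and 39.9 CPM and its knockouts 17.1, 33.1, 13.0 and 15.0 CPM. All knockouts lay below all controls, and knockout 2 came nearest to them. In knockouts 1 to 4 the summed slow fibre markers were 735, 143, 86.0 and 742 CPM and Myh2 was 1167, 1595, 124 and 1696 CPM, and the part of these fibre types in the fall of Fgf1 was not tested. The mean fell from 44.5 ± 9.52 (SD, n = 3) to 19.6 ± 9.19 CPM (SD, n = 4), a ratio of 0.440 and a log2 difference of -1.19 with standard error 0.297 (adjusted p = 0.0309). The call ended without any 1 library other than knockout 2 (adjusted p = 0.0594 to 0.0972) and with a robust prior (0.0591). Without knockout 2 the log2 fold change was -1.56 (adjusted p = 0.00245).

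Angpt1, the angiopoietin that steadies vessels through the receptor Tek (chromosome 15, 42424723 to 42676977, minus strand, GRCm38), read 22.5, 10.8 and 16.5 CPM in the controls. In the knockouts it read 7.80, 10.4, 7.93 and 14.3 CPM. Control 2 lay within the knockout range, and the groups overlapped. The log2 fold change, -0.72 ± 0.271 (SE), had a 95% interval of -1.33 to -0.11 before adjustment (adjusted p = 0.107), which DESeq2 called (adjusted p = 0.0472). Without control 1 it was -0.45 (adjusted p = 0.353). An antisense gene shares 737 bases with its exons, and since the strand of the counting is not given, reads from both cannot be told apart.

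Apln encodes apelin, a peptide of endothelial cells and fibres that acts on the receptor encoded by Aplnr, and lies on chromosome X (48025146 to 48034853, minus strand, GRCm38). With 7 to 24 counts in a library it was close to the limit of the filter. Controls ran from 0.402 to 0.613 CPM and knockouts from 0.282 to 0.871 CPM, knockout 1 being the highest and knockout 4 the lowest of all 7. The log2 fold change, -0.031 ± 0.406 (SE), had a 95% interval of -0.95 to 0.89 (adjusted p = 0.968), and its sign turned when control 2, knockout 2, knockout 3 or knockout 4 was left out.

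**Figure D2:**
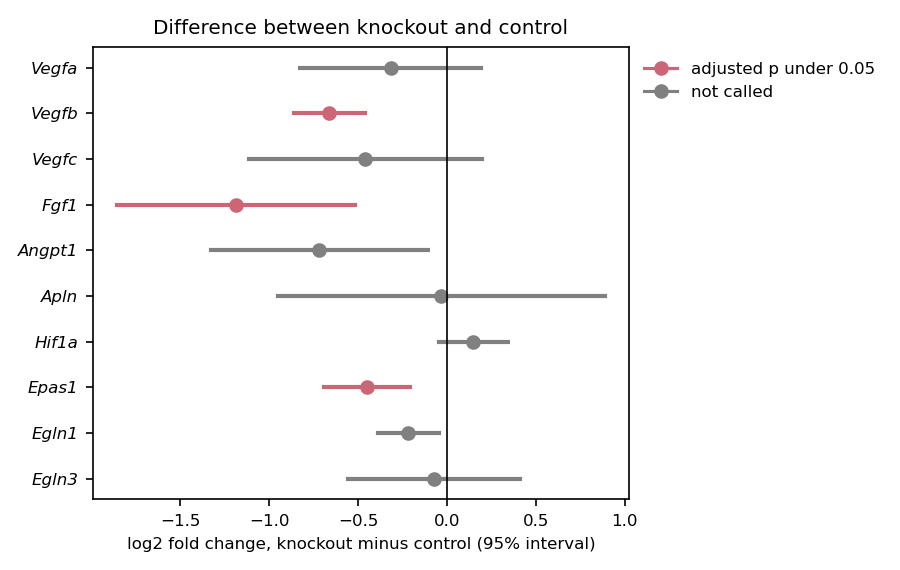
Log2 fold change of each gene, knockout minus control (points), with its 95% interval before adjustment (lines). Red marks the 3 genes called at an adjusted p under 0.05. The interval of Apln runs from -0.95 to 0.89 and that of Vegfb from -0.86 to -0.46.

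Of the HIF alpha subunits, Epas1 fell and Hif1a was not called. Epas1 encodes HIF-2alpha, which is abundant in endothelium, and lies on chromosome 17 (86753700 to 86833410, plus strand, GRCm38). It read 161, 185 and 139 CPM in the controls and 119, 131, 110 and 113 CPM in the knockouts, without overlap, although control 3 and knockout 2 were close. The mean fell from 162 ± 23.2 (SD, n = 3) to 118 ± 9.53 CPM (SD, n = 4), a ratio of 0.732 and a log2 difference of -0.45 with standard error 0.108 (adjusted p = 0.0270). Without control 1, control 2, knockout 3 or knockout 4 the call ended (adjusted p = 0.0656 to 0.0831), with log2 fold changes from -0.46 to -0.34.

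Most endothelial markers were not called. The 20 genes summed to between 474 and 561 CPM in the controls and between 405 and 480 CPM in the knockouts, with overlap, and 4 of the 20 were called lower (Cd34, Tie1, Egfl7 and Erg) and none higher, against 8.23% and 6.67% of all tested genes. In 8 of the 20 every knockout lay below every control, against 14.8% of all tested genes, and in none above. The median log2 fold change of the markers was -0.29, and none of the 20 was at 0 in any library. The mean of the endothelial sum in the knockouts was 0.839 times that in the controls, and that of Epas1 0.732 times. The quotient of Epas1 over that sum was computed after the values were seen. It was 0.287, 0.350 and 0.293 in the controls and 0.277, 0.273, 0.271 and 0.261 in the knockouts. The groups did not overlap, but the highest knockout (0.277) lay close to the lowest control (0.287). The part of endothelial RNA in the fall of Epas1 was not tested beyond these values. In whole muscle, fewer cells of a type and less RNA per cell cannot be told apart.

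Hif1a, which encodes the HIF-1alpha subunit found in most cells, lies on chromosome 12 (73901375 to 73947530, plus strand, GRCm38). Levels were 18.1, 18.4 and 20.1 CPM in the controls and 20.8, 22.4, 19.7 and 20.8 CPM in the knockouts. All knockouts but knockout 3 lay above every control, and the spread within groups was narrow. Its log2 fold change, 0.15 ± 0.0860 (SE), had a 95% interval of -0.046 to 0.34 (adjusted p = 0.272), and it was not called in any of the 14 alternatives. Other annotated genes share 330 and 148 bases with its exons.

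The count of Hif1a was 0.112, 0.0993 and 0.145 times that of Epas1 in the controls and 0.174, 0.170, 0.180 and 0.184 times in the knockouts. This ratio is taken within a library and does not depend on scaling. It was higher in every knockout than in every control, by 0.59 on the log2 scale (2-sided exact permutation test, p = 0.0286, the smallest that 35 splits can give, and 0.0857 adjusted over the 3 ratios tested). Since the smallest p was reached, 1 separated ratio among 3 could give no lower adjusted p, and nothing can be read from its missing the threshold. The ratio of Vegfa to Vegfb differed by 0.29 (exact permutation p = 0.400, adjusted 0.543) and overlapped, from 2.46 to 3.43 in the controls and from 2.66 to 5.09 in the knockouts. So the fall of Vegfb and the uncalled value of Vegfa were not shown to differ.

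Of the hydroxylases, neither Egln1 nor Egln3 was called. Egln1 encodes PHD2, the main oxygen sensor of the pathway, and lies on chromosome 8 (124908587 to 124949324, minus strand, GRCm38). Its controls read 310, 329 and 295 CPM and its knockouts 250, 280, 271 and 271 CPM. Every knockout lay below every control, but the shift was small. The log2 fold change, -0.22 ± 0.0751 (SE), had a 95% interval of -0.39 to -0.047 before adjustment (adjusted p = 0.0851). Upper quartile scaling (adjusted p = 0.0413) and DESeq2 (0.0469) called it.

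Egln3 encodes PHD3, a hydroxylase strongly induced by HIF, and lies on chromosome 12 (54178981 to 54203860, minus strand, GRCm38). Its level was 49.0, 76.2 and 61.2 CPM in the controls and 61.3, 65.6, 37.999 and 71.5 CPM in the knockouts. Knockout 3 was the lowest of all libraries, and the others lay within the control range. Its log2 fold change, -0.073 ± 0.214 (SE), had a 95% interval of -0.56 to 0.41 (adjusted p = 0.846), and its sign turned without control 2 (0.10) or knockout 3 (0.089). The within-library ratio of Egln1 to Egln3 differed by -0.13 on the log2 scale (exact permutation p = 0.543).

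**Figure D3:**
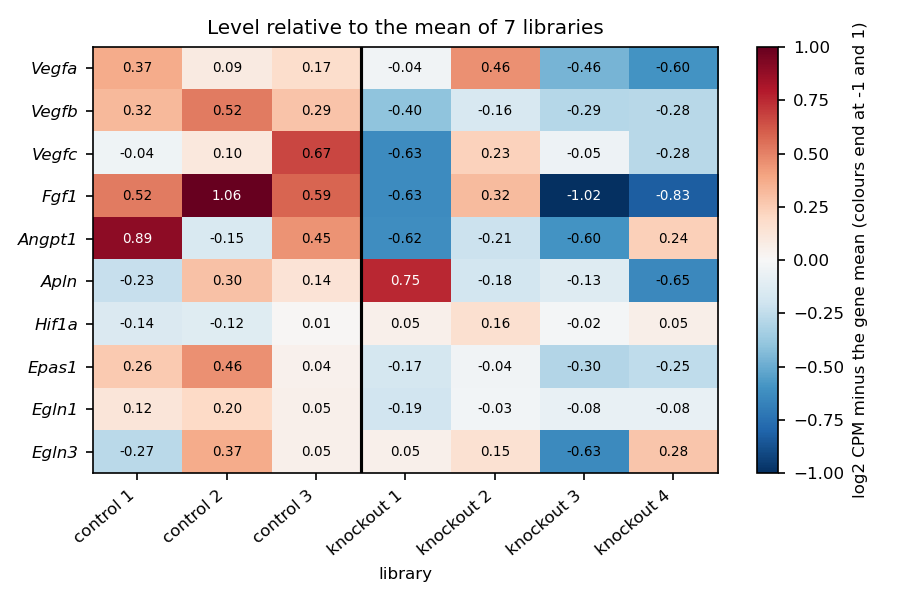
Log2 CPM of each gene (rows) in each library (columns) minus the gene's mean over the 7 libraries, with a prior count of 2. Colours end at -1 and 1 and the black line parts controls from knockouts. Knockout 2 is above the mean for Vegfa (0.46) and Fgf1 (0.32), in which the other knockouts are below it, and Hif1a varies least.

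Per kilobase of exon (RPKM, the CPM divided by kilobases in the union of GENCODE M21 exons), Egln1 was the most abundant of the 10 RNAs. In the controls it stood at 86.6 ± 4.65 RPKM (SD, n = 3), followed by Vegfa at 41.5 ± 4.23, Vegfb at 37.5 ± 3.32, Epas1 at 28.9 ± 4.14 and Egln3 at 23.3 ± 5.12. Fgf1 came next at 8.14 ± 1.74, then Hif1a at 3.20 ± 0.188 and Angpt1 at 3.19 ± 1.12, with Vegfc at 0.498 ± 0.144 and Apln at 0.165 ± 0.0341. The control ranges of Vegfa and Vegfb overlapped, as did those of Epas1 and Egln3 and those of Hif1a and Angpt1, so that the order within each pair was not resolved. In the knockouts Vegfb was at 23.7 ± 1.62 RPKM (SD, n = 4), between 21.8 and 25.7, and Vegfa between 23.6 and 49.1. Egln1 remained highest at 74.6 RPKM, and the ranges of Vegfa, Vegfb, Egln3 and Epas1, next in that order, overlapped between neighbours. Fgf1 at 3.58 ± 1.68 RPKM then stood beside Hif1a at 3.54 ± 0.186. Knockout libraries spread most for Apln (SD 50.8% of the mean), Fgf1 (47.0%) and Vegfa (34.6%), and least for Egln1 (4.83%), Hif1a (5.26%) and Vegfb (6.82%).

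The receptors and co-receptors of these ligands were mostly uncalled. Of 12 listed, 11 were tested, and 1 rose and 1 fell, shares near the 6.67% and 8.23% of all tested genes (median log2 fold change -0.28). Tie1, the orphan partner of the angiopoietin receptor and one of the endothelial markers, fell from 35.1 ± 0.784 to 25.3 ± 2.77 CPM, a log2 difference of -0.47 with standard error 0.0973 (adjusted p = 0.0162), which was not called once any 1 control was removed (0.0514 to 0.0543). Fgfr1, a receptor of FGF1, rose from 71.6 ± 5.64 to 115 ± 28.4 CPM, a log2 difference of 0.68 with standard error 0.174 (adjusted p = 0.0325), which ended without any 1 control or knockout 3 (0.0707 to 0.118). The VEGF receptors Kdr and Flt1 had log2 fold changes of -0.42 and -0.14 (adjusted p = 0.0982 and 0.634), Nrp1 had -0.50 (0.0772) and Aplnr -0.997 (0.0543), values picked after they were seen. Without knockout 2 the number that fell was 3, and it was 0 without control 1 or control 3. Of all tested genes, 1091 fell without knockout 2, 525 without control 1 and 529 without control 3, against 1103 in the main fit.

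Among other angiogenic ligands, 9 of 10 were in the table and tested, 1 rose (6.67% of all tested genes did) and none fell, with none lower by DESeq2 or at an unadjusted p under 0.05 (median -0.039). The one that rose was Pdgfb, which recruits pericytes to new vessels, from 19.9 ± 2.39 to 29.1 ± 4.46 CPM, a log2 difference of 0.55 with standard error 0.138 (adjusted p = 0.0310). It was not called in the absence of control 1, control 3, knockout 1 or knockout 3 (0.0595 to 0.110). Markers of pericytes and smooth muscle, on which PDGF-B acts, summed to 711 to 810 CPM in controls and 689 to 726 CPM in knockouts. Of these 10 markers 5 were called lower, against 8.23% of all tested genes, and none was at 0 in any library.

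Some other parts of the HIF machinery rose. Of 13 genes tested, 4 rose and 1 fell, against 6.67% and 8.23% of all tested genes (median 0.15). Egln2, the third HIF prolyl hydroxylase (PHD1), rose from 93.2 ± 2.14 to 126 ± 13.5 CPM, a log2 difference of 0.44 with standard error 0.0920 (adjusted p = 0.0175). Tceb2 (elongin B, a subunit of the von Hippel-Lindau ubiquitin ligase) rose by 0.33 (adjusted p = 0.0198) and Crebbp, a coactivator that HIF recruits, by 0.34 (0.0464). The fourth was Hif1an, the asparagine hydroxylase that blocks this recruitment, named after its value was seen, by 0.35 (0.0484). Cited2, which competes with HIF for the coactivators, fell from 68.6 ± 11.6 to 43.2 ± 5.22 CPM, a log2 difference of -0.67 with standard error 0.132 (adjusted p = 0.0142). Without control 1 or control 3 none of the machinery genes rose, 1 did without control 2 and 2 without knockout 4. Calls fell over all tested genes as well, where 302, 380 and 258 rose without controls 1, 2 and 3. Without knockout 4 the number was 551, against 895 in the main fit. Cited2 was not called without control 3 (0.0511). Egln2 was not called without any 1 control (0.0530 to 0.0705), nor Tceb2 without control 1 or control 3. Hif3a, the third alpha subunit, had a log2 fold change of 0.76 (adjusted p = 0.142), a value picked after it was seen. Crebbp was called in 5 of the 14 alternatives.

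Most textbook HIF targets were not called. Of 35 tested, 3 rose, 1 fell and 31 were not called, where 6.67% of all tested genes rose and 8.23% fell. In this main fit the share that rose was near that of all genes, and the share that fell was not above it. The median was 0.034, against 0.0058 for all genes. Vldlr, a lipoprotein receptor, rose from 297 ± 27.1 to 568 ± 45.1 CPM, a log2 difference of 0.94 with standard error 0.0974 (adjusted p = 0.00239) and was called in all 14 alternatives. Slc16a3, the lactate exporter, rose by 0.65 (adjusted p = 0.0141) and Ddit4, a brake on mTOR, by 1.94 (0.0167). Their calls ended without control 3, and also without control 1 for Slc16a3 and control 2 for Ddit4. Pdk1, a kinase that inhibits pyruvate dehydrogenase, fell from 79.3 ± 1.03 to 59.7 ± 4.21 CPM. Its log2 difference was -0.41 with standard error 0.0757 (adjusted p = 0.0115), and it was called in all 14. Without knockout 2, 5 targets rose and 4 fell, where 966 of all tested genes rose and 1091 fell. Without control 3 only 1 target rose, and over all tested genes 258 did, against 895 in the main fit.

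The PGC-1 and estrogen-related receptor genes, listed for the route to Vegfa without HIF, were lower or uncalled. Whether each of them induces Vegfa in this muscle was not tested. Of the 6 PGC-1 and estrogen-related receptor genes, 3 fell (8.23% of all tested genes did) and none rose, with none higher by DESeq2 or at an unadjusted p under 0.05 (median -0.68). Esrrb, an estrogen-related receptor, fell from 8.79 ± 1.79 to 2.44 ± 0.528 CPM, a log2 difference of -1.84 with standard error 0.201 (adjusted p = 0.00297) and was called in all 14 alternatives. The coactivator genes Perm1 and Ppargc1b fell by 0.69 and 0.66 (adjusted p = 0.0406 and 0.0494). Without any 1 library other than knockout 2, only 1 of the 6 (Esrrb) was called, and without knockout 2, 5 were. Of all tested genes, 525, 643 and 529 fell without controls 1, 2 and 3, against 1103 in the main fit. The numbers were 923, 1091, 570 and 702 without knockouts 1, 2, 3 and 4. Ppargc1a itself stood at 37.7 and 39.9 CPM (adjusted p = 0.813).

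**Figure D4:**
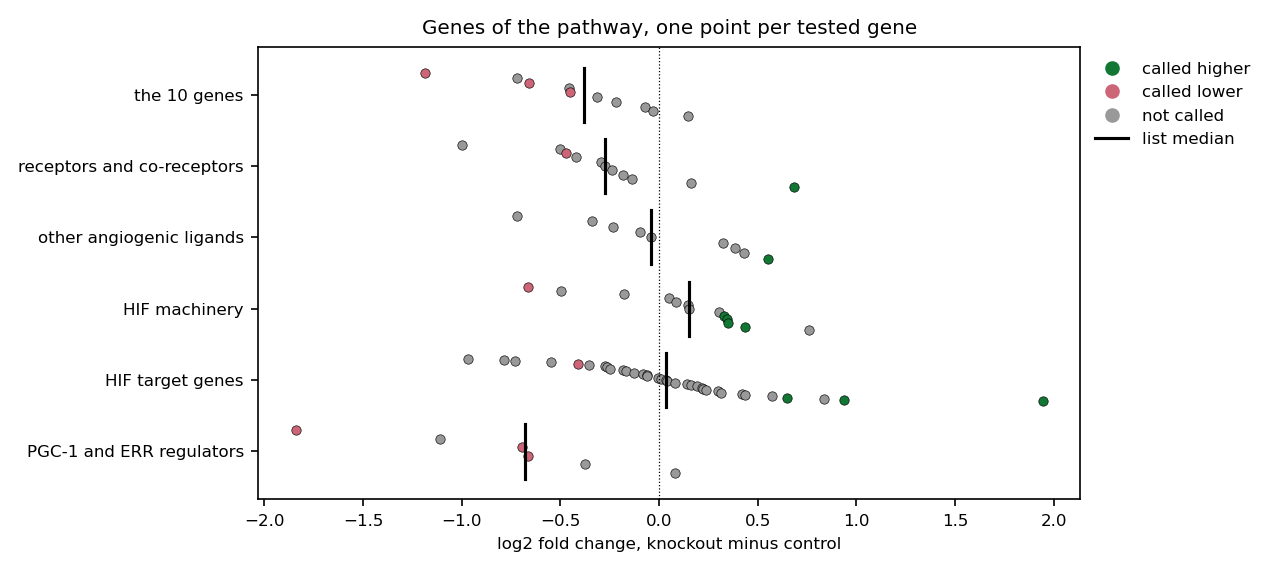
Log2 fold change, knockout minus control (horizontal axis), of every tested gene in the 10 genes and in the 5 lists (rows). Green points were called higher, red points lower and grey points not at all, and the black bar is the list median. The median lies at -0.38 for the 10 genes, at 0.034 for the HIF targets and at -0.68 for the PGC-1 and estrogen-related receptor genes.

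The genes with the most similar profile were sought among 11997 tested genes outside the lists, by the root mean square difference of log2 CPM over the 7 libraries after each gene was centred on its mean. For Vegfb the nearest were Lace1, a mitochondrial ATPase (0.0572), Coro6, a coronin (0.0606), and Cpt2, carnitine palmitoyltransferase of the inner mitochondrial membrane (0.0634), where Vegfb itself had a root mean square of 0.339. All of these were called lower, Cpt2 by 0.64 on the log2 scale (adjusted p = 0.00310). They were picked for their likeness to Vegfb in these same libraries, so their calls are no separate result. For Vegfa they were the tyrosine kinase gene Syk (0.102), Celsr3 (0.110) and Cyp4f13 (0.118), each under 3 CPM on average and none called. For Hif1a they were Specc1l (0.0352), Tgoln1 (0.0355) and Mycbp (0.0375), none called. Among the 10 genes themselves the nearest pair was Vegfb and Epas1 (0.140), followed by Epas1 and Egln1 (0.154). The measure is also small between genes that vary little. Hif1a and Egln1 came next (0.205), although their log2 fold changes had opposite signs (0.15 and -0.22).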

How the data were processed

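Gene expression was measured by RNA sequencing on a BGISEQ platform with paired-end reads, per the labels' protocols. The authors aligned reads to mm10 with STAR 2.7.10a and quantified genes with RSEM 1.2.28, per the submitters' processing notes. No annotation or strand is stated in the labels. The deposited table holds RSEM expected counts by gene symbol, which were rounded. Reads shared between similar genes make an expected count fractional, and all values of the 10 genes were whole. Dates replaced 24 symbols, and those genes stayed in the tests unnamed.

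The main test was that of edgeR 4.0.16 under R 4.3.3 (filterByExpr defaults, TMM, quasi-likelihood F test), with Benjamini-Hochberg adjustment across every tested gene. A standard error is the size of the log2 fold change divided by the root of its F value. Alternatives were a mean count of at least 10 as filter or no filter, scaling by RLE or by upper quartile, DESeq2 1.42.0, a robust prior, a term for the replicate number and each library left out. The tests were checked on simulated counts. Within-library ratios used counts plus 0.5 and an exact permutation test.

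The genes named were the 10 genes, Park7, up to 4 called genes of each of 5 pathway lists (the 2 of smallest p where none was called) and the 3 genes most like Vegfa, Vegfb and Hif1a. Genes, lists and tests were chosen with earlier results of these data known.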

Additional observations from a re-analysis of the deposited data

Results flagged for a closer look

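Of 52 groups of 4 knockout values examined for a library far from the others, 2 had one, where chance flags about 1 in 20 groups. The summed satellite cell markers stood at 44.9 CPM in knockout 2, against 61.3 to 63.0 CPM in the other knockouts. The summed defining markers of skeletal muscle stood at 44276 CPM in knockout 1, against 55116 to 57349 CPM in the others. None of the 10 genes was among them.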

How the results depend on the processing

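Calls over all genes numbered 1998, between 787 (without control 3) and 2057 (without knockout 2) with 1 library left out, 827 without control 1, 1023 without control 2, 952 without knockout 3 and 1253 without knockout 4. Of the 10 genes 3 were called, 5 with DESeq2 and between 1 and 4 with 1 library left out. With the replicate block 1273 genes and 3 of the 10 were called. The labels do not say that numbers pair samples: same-numbered deviations correlated at 0.0945, 0.134 and 0.0854, and each of the 3 controls correlated best with its own number. The sign turned for Apln with the replicate block (0.13) and with 1 library left out (-0.45 to 0.16), and with 1 library left out for Egln3 (-0.22 to 0.10) and for the log2 ratio of Egln1 to Egln3 (-0.33 to 0.030). None of these was called, and the cause was not tested. With DESeq2, 7 HIF targets rose and 5 fell, 3 receptors fell, and 5 machinery genes rose. Of all 13409 tested genes, 1076 rose and 1278 fell with it. With upper quartile scaling 5 targets and 2 receptors fell, and 2 machinery genes rose (1295 of all 13409 fell, 644 rose). No filter also left 2 machinery genes that rose (683 of 21455 genes did). The block left 2 machinery genes that rose (577 of all 13409 did), not Tceb2, and ended the call of Cited2 (0.0513). With it 2 receptors fell (696 of all genes did). Of the PGC-1 list, 2 fell with no filter (914 of all genes did) or the block and 1 with a robust prior (1042 of all genes). With 24458343 counts or more per library, Vegfc and Apln rest on few reads.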
